A study of Mus musculus with 6 samples.

Results

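The transcript levels of 10 mouse genes that mark the balance between epithelial and mesenchymal cells were examined in 3 keratinocyte lines: the cadherin genes Cdh1, Cdh2, Cdh3 and Cdh11, the intermediate filament gene Vim, the transcription factor genes Twist1, Snai2, Zeb1 and Zeb2, and the actin gene Acta2. They were chosen by gene symbol. Each of the 10 symbols had 1 transcript cluster, a set of exons of the same locus summarised into 1 value, among 23332 clusters on the array. The wild-type line, MK116, came from keratinocytes of a newborn wild-type mouse and the α3-null line, MK546, from those of a newborn mouse lacking the integrin α3 subunit. The rescue line was MK546 carrying a stably transfected human α3 cDNA. All 3 lines, wild type included, expressed the SV40 large T antigen as the immortalizing agent, and each genotype was 1 line, with the number of mice or clones behind it not given in the sources used here. All were kept at 33 °C on denatured collagen, in medium with calcium-depleted serum (4%), 0.05 mM CaCl2, EGF (10 ng/ml), insulin, hydrocortisone and interferon-γ (10 units/ml). Each line was measured on 2 Affymetrix Mouse Exon 1.0 ST arrays, called biological replicates in the design text without a word on separate cultures, so p-values here measure the spread between 2 arrays of the same line.

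Classical cadherins join neighbouring cells by calcium-dependent binding outside the cell and are tied to actin through catenins inside it. E-cadherin (Cdh1) and P-cadherin (Cdh3) are the classical cadherins of the epidermis, whereas N-cadherin (Cdh2) and cadherin-11 (Cdh11) are best known from neural and mesenchymal cells. In an epithelial-mesenchymal transition, loss of E-cadherin with gain of N-cadherin is called a cadherin switch, and vimentin rises. The factors encoded by Snai2, Zeb1, Zeb2 and Twist1 act as regulators of the transition and can repress Cdh1.

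Promoter sequence, the 250 bases before the start of transcription in RefSeq (GRCm38.p6), was at hand for 4 of the 10 genes (Vim, Twist1, Zeb2 and Acta2). Those of Vim, Twist1 and Acta2 are shown because these 3 genes differed between the lines, each in its own pattern. Capitals mark TATAAA, the core of a TATA box, and CANNTG, the E-box that Snail, Zeb and Twist factors can bind; both were searched on both strands, and no 2 of the matches overlap.
Vim, chr2:13574061-13574310, plus strand: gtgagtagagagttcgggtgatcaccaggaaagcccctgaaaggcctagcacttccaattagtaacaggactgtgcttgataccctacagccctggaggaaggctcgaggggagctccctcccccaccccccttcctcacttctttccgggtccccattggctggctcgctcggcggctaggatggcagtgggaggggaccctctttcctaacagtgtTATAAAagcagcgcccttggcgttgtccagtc
Twist1, chr12:33957421-33957670, plus strand: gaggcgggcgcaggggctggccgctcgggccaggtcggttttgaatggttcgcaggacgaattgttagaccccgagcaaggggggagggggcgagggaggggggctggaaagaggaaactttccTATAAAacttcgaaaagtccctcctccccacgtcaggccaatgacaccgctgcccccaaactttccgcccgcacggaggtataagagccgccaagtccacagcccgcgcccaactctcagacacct
Acta2, chr19:34255374-34255623, minus strand: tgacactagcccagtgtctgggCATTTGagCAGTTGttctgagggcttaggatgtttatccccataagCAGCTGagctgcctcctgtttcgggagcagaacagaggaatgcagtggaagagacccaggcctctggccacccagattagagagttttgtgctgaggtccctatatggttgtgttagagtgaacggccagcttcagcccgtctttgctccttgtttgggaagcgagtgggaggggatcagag
The Vim window held 1 TATAAA, at -32 from the start, and the Twist1 window 1, at -126, a motif found in 12.4% of 32851 promoters of the same length. Neither window held CANNTG, which 66.2% of the promoters did. The Acta2 window held 3 (CATTTG at -228, CAGTTG at -220 and CAGCTG at -182). A CArG box, the motif of serum response factor (1.47% of promoters), was found in none of these 3 windows in its strict form. Forms 1 base off were not searched, but the Acta2 window holds such stretches, ccctatatgg and ccttgtttgg. These matches describe letters only.

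Median intensity per array was 96.6 to 108. The targeted gene, Itga3, gave 6326 ± 54.1 (mean ± SD, n = 2, here and below) in the wild-type line, 952 ± 63.2 in the null line and 1219 ± 2.04 in the rescue line; the rescue construct is human and these probes are mouse, so the last value is a partial check of the label. The keratinocyte label was borne out by Krt5, a basal keratin gene, at 14652 ± 315, 13784 ± 558 and 13435 ± 620 in wild type, null and rescue. Differences below are on the log2(intensity + 16) scale, with the standard error and the adjusted p of limma over all 23332 clusters; differences with that p under 0.05 count as called. Each cluster has its own probes, so levels are compared between lines and not between genes.

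**Figure D1:**
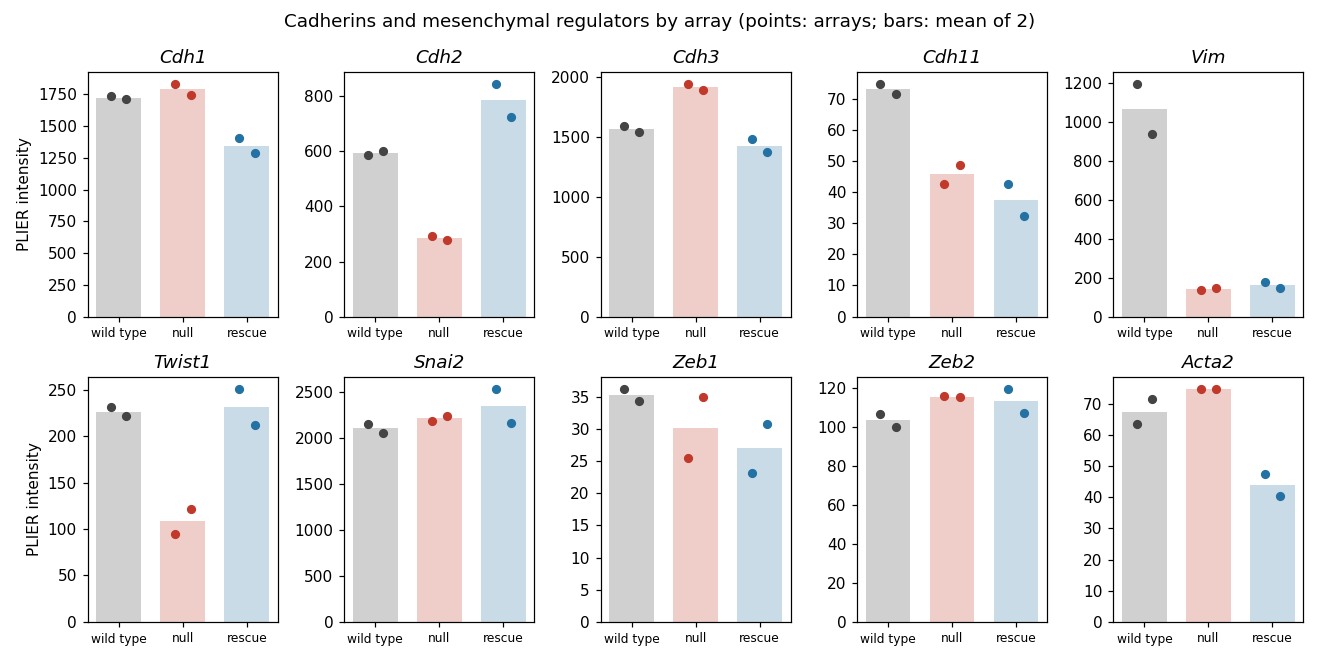
PLIER intensity (linear axis from 0, a different range in each panel) of the 10 genes in the 3 lines; points are single arrays and bars the mean of 2. Cdh2 and Twist1 are low on both null arrays, Vim is high on both wild-type arrays, and Cdh1, Cdh3 and Acta2 are lowest on the rescue arrays.

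The N-cadherin gene had the largest difference of the 4 cadherin genes among the 10. Cdh2 read 587 and 600 in wild type, 291 and 278 in null, and 847 and 727 in rescue. The null line was below both others and the rescue line above both, with no overlap between lines. The null line thus held 47.9% of the wild-type level (log2 difference -1.02 ± 0.09, limma adjusted p = 0.00146). The rescue line held 2.76 times the null level (1.41 ± 0.09, limma adjusted p = 0.000693). These 2 differences kept their calls under every alternative of the processing, each single array left out included. Rescue was also above wild type, by 0.39 ± 0.09 (limma adjusted p = 0.0382), but that call was lost when any array but the second rescue array was left out (limma adjusted p up to 0.165), with quantile normalization (0.0637), without the variance trend (0.0796) and with only 2 lines fitted (0.0653). As in any bulk sample, fewer cells with a transcript and less of it per cell cannot be told apart.

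E-cadherin and P-cadherin transcripts were lower in the rescue line than in the null line, and that of E-cadherin also lower than in wild type. Cdh1 read 1733 and 1712 in wild type, 1835 and 1746 in null, and 1402 and 1285 in rescue. The null values lay just above the wild-type values, and both rescue arrays were below all others. Null and wild type differed by 0.05 ± 0.07 (95% interval -0.12 to 0.23; limma adjusted p = 0.698). The rescue line held 75.1% of the null level (-0.41 ± 0.07, limma adjusted p = 0.0155) and 78.0% of the wild-type level (-0.36 ± 0.07, limma adjusted p = 0.0237). The first of these calls was lost without either null array (limma adjusted p = 0.0848 and 0.0592), the second without either wild-type array (0.127 and 0.125) or the second rescue array (0.0699), and both without the variance trend (0.0507 and 0.0686).

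Cdh3 read 1587 and 1536 in wild type, 1945 and 1888 in null, and 1478 and 1373 in rescue. The order was null, wild type, rescue, without overlap. Null was above wild type by 0.29 ± 0.07 (limma adjusted p = 0.0360), a call that ended without any one of the 4 arrays of these 2 lines (limma adjusted p = 0.113 to 0.190) or without the variance trend (0.100). Rescue was at 74.4% of null (-0.42 ± 0.07, limma adjusted p = 0.0121), again not called without the first (0.0712) or second null array (0.0571). Rescue and wild type differed by -0.13 ± 0.07 (95% interval -0.30 to 0.03; limma adjusted p = 0.261).

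Cdh11, a type II cadherin known from mesenchyme and osteoblasts, was below the array median in all lines. It read 75.0 and 71.7 in wild type, 42.6 and 48.8 in null, and 42.6 and 32.3 in rescue. Wild type was above both other lines. The rescue line was below wild type by -0.75 ± 0.14 (limma adjusted p = 0.0213), which was no longer called without the first (0.107) or second wild-type array (0.102) or the second rescue array (0.0727). Null against wild type gave -0.54 ± 0.14 and did not pass (limma adjusted p = 0.0576), although it did with a pseudocount of 64 (0.0438), with dim clusters removed (0.0493), with only these 2 lines fitted (0.0492) or with only named clusters tested (0.0133).

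Cdh3 and Cdh1 lie next to each other on chromosome 8 in the gene order of GRCm38.p6. Among the 20 measured genes around Cdh1 (10 on each side, Cdh3 among them), 16 were below 0 in rescue minus null. Of the 20, 7 were called lower and 1 higher. In the same comparison 15.7% of 752 genes of the chromosome and 5.62% of all clusters were called lower. The median log2 difference of the 20 was -0.23, against -0.08 for the 752 genes and 0.02 for all clusters. Tango6, the gene on the other side of Cdh1, fell by 0.44 (limma adjusted p = 0.0274) and Utp4 by 0.61 (limma adjusted p = 0.00246). Pla2g15 rose by 0.64 (limma adjusted p = 0.0311), so the genes around Cdh1 did not all go one way. In null minus wild type the same 20 neighbours had a median of 0.10, with 4 called higher and 1 lower. Of the 752 genes of the chromosome, 113 were called higher and 37 lower there (median 0.06). Of all clusters, 8.49% were called higher and 6.84% lower. The part of chromosomal position in the Cdh1 and Cdh3 values was not tested. For Cdh2, Vim and Twist1 the 20 neighbours had medians of -0.06, 0.07 and 0.22 in null minus wild type, beside -1.02, -2.77 and -0.97 for the genes themselves. The neighbours of Cdh2 include the desmosomal cadherin gene Dsc3, at 4264 ± 107 in wild type, 4210 ± 235 in null and 582 ± 51.2 in rescue. The neighbouring genes named here were chosen after their values were seen.

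**Figure D2:**
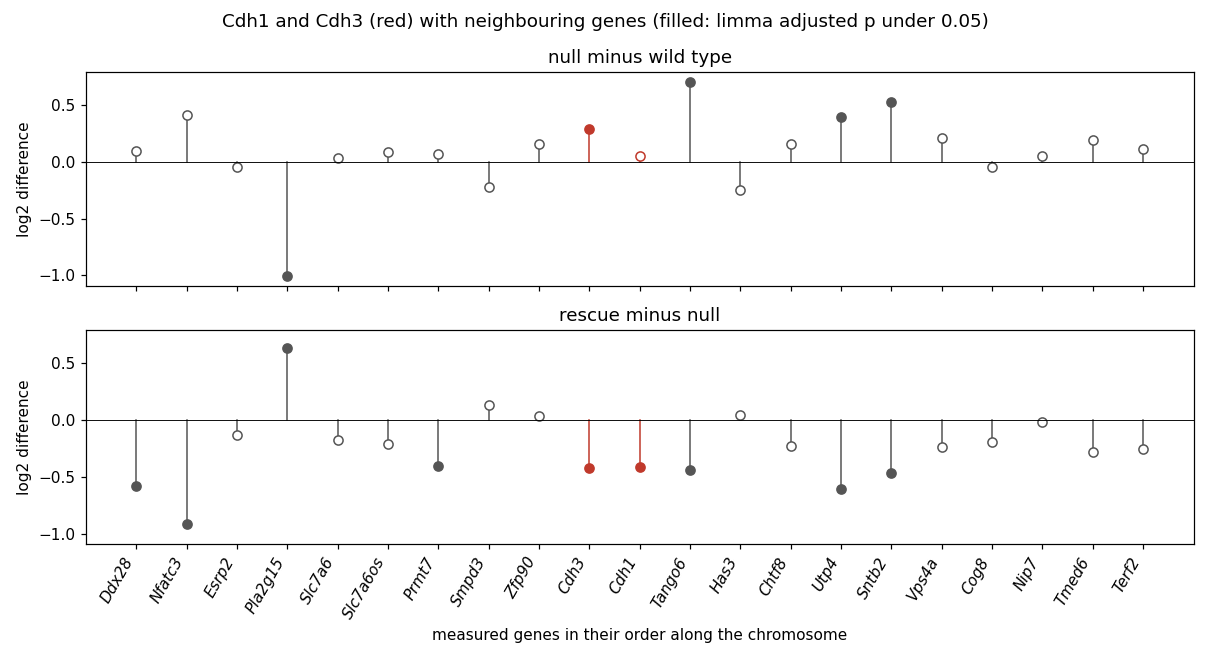
Log2 difference (intensity + 16 scale) of Cdh3 and Cdh1 (red) and of measured genes around them (grey), in their order along the chromosome, for null minus wild type (top) and rescue minus null (bottom); filled points have a limma adjusted p under 0.05. In the lower panel 16 of the 20 neighbours of Cdh1 are below 0 and 7 of them are called lower, beside 15.7% of 752 genes of the chromosome.

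Vimentin, the intermediate filament protein of mesenchymal cells that many cultured epithelial lines also make, gave the largest difference among the 10 genes. Vim read 1200 and 940 in wild type, 137 and 148 in null, and 180 and 146 in rescue. Both wild-type arrays were far above the other 4, and null and rescue overlapped. The null line held 13.3% of the wild-type level (-2.77 ± 0.15, limma adjusted p = 0.000194) and the rescue line 15.3% (-2.60 ± 0.15, limma adjusted p = 0.000240). Both calls were kept under every alternative of the processing. Rescue minus null was 0.18 ± 0.15 (95% interval -0.19 to 0.54; limma adjusted p = 0.512).

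Of the 4 transcription factor genes, Twist1 was the one whose level was called different between lines. Twist1, which encodes a basic helix-loop-helix factor of mesoderm and neural crest, read 231 and 222 in wild type, 94.9 and 121 in null, and 251 and 212 in rescue. Both null arrays were below the other 4, and rescue and wild type overlapped. The null line held 47.8% of the wild-type level (-0.97 ± 0.14, limma adjusted p = 0.00743), a call lost without the first (0.0604) or second wild-type array (0.0514). The rescue line held 2.14 times the null level (1.00 ± 0.14, limma adjusted p = 0.00799), called in all 6 fits that left an array out. Rescue minus wild type was 0.03 ± 0.14 (95% interval -0.31 to 0.36; limma adjusted p = 0.926), and its sign turned with quantile normalization (-0.06) and with median centring (-0.01).

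Snai2, which encodes the zinc finger repressor Slug, a factor also present in normal basal keratinocytes, read 2155 and 2054 in wild type, 2185 and 2237 in null, and 2533 and 2165 in rescue. Its differences of 0.07, 0.08 and 0.15 (null minus wild type, rescue minus null, rescue minus wild type) did not pass (limma adjusted p = 0.687, 0.617 and 0.316), and their 95% intervals reached at most 0.37. The second turned sign with median centring (-0.04).

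Zeb1, a zinc finger and homeodomain repressor of Cdh1, was dim, at 36.3 and 34.4 in wild type, 25.6 and 34.9 in null, and 23.2 and 30.8 in rescue. Null overlapped with both other lines. Its intervals were the widest of the 4 factors, from -0.57 to 0.25 for null minus wild type and from -0.67 to 0.15 for rescue minus wild type. The related factor gene Zeb2 read 107 and 100 in wild type, 116 and 115 in null, and 120 and 107 in rescue. Its differences lay between -0.03 and 0.14, with limma adjusted p of 0.446 to 0.899.

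Acta2, the smooth muscle α-actin gene and a marker of myofibroblasts, was also below the array median. It read 63.4 and 71.4 in wild type, 74.8 and 74.8 in null, and 47.4 and 40.3 in rescue. Both rescue arrays were below the other 4. Rescue was at 58.7% of null (-0.60 ± 0.12, limma adjusted p = 0.0248) and 65.1% of wild type (-0.48 ± 0.12, limma adjusted p = 0.0496). The first was still called in 1 of the 6 fits that left an array out, namely without the first wild-type array (0.0495), and the second in none of them (0.0862 to 0.217). With only 2 lines fitted neither was called (0.0509 and 0.0962), and the second was also lost with pseudocounts of 1 (0.0540) and 64 (0.0500), with quantile normalization (0.0508) and with the replicate number as a block (0.0800). Null minus wild type was 0.12 ± 0.12 (limma adjusted p = 0.598).

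**Figure D3:**
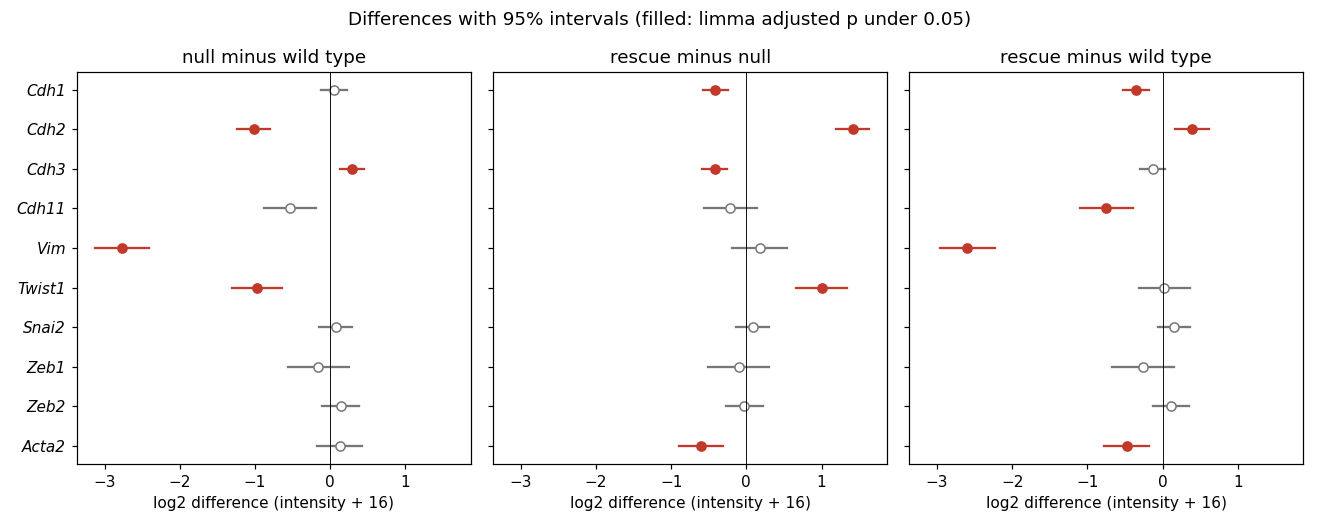
Log2 differences (intensity + 16 scale; points) of the 10 genes with 95% intervals from limma (lines) in the 3 comparisons; filled red points have an adjusted p under 0.05. Vim is at -2.77 and -2.60 in both comparisons with wild type, and Cdh2 and Twist1 are below 0 in null minus wild type and above 0 in rescue minus null.

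Counted together, 4 of the 10 genes were called in null minus wild type, 3 lower (Vim, Cdh2, Twist1) and 1 higher (Cdh3), beside 15.3% of all clusters (8.49% higher and 6.84% lower). The 2 lines did not overlap for 9 of the 10 genes, beside 56.3% of all clusters. The median log2 difference was -0.05 for the 10 genes and -0.01 for all clusters. In rescue minus null 5 were called, Cdh2 and Twist1 higher and Cdh1, Cdh3 and Acta2 lower, beside 15.4% of all clusters (9.75% higher and 5.62% lower; medians -0.06 and 0.02). The lines did not overlap for 6 genes, beside 55.6% of all clusters. In rescue minus wild type 5 were called, Cdh2 higher and Cdh1, Cdh11, Vim and Acta2 lower, beside 15.4% of all clusters (10.4% higher and 5.05% lower; medians -0.20 and 0.03). The lines did not overlap for 9 genes, beside 57.6% of all clusters. The comparisons share arrays, so these counts are not independent of each other, and the genes were chosen with earlier results known. Called falls of Cdh1 and rises of Cdh2 thus stood together in the rescue line. Of these, only the rise of Cdh2 over null kept its call under every alternative of the processing. Cdh3 was also called lower in rescue than in null, and Vim in rescue was at 15.3% of wild type. Twist1 was called higher in rescue than in null, whereas Snai2, Zeb1 and Zeb2 were not called in any comparison.

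Genes for the partners of cadherins were called in both directions. Of 18 measured catenin, nectin and other junction partner genes, 4 were called higher and 5 lower in null minus wild type (median -0.05). In rescue minus null 4 were higher and 2 lower (-0.02), and in rescue minus wild type 3 were called each way (0.03). These calls made up 50.0%, 33.3% and 33.3% of the list, beside 15.3%, 15.4% and 15.4% of all clusters. Nectin3, an immunoglobulin-family adhesion gene, fell from 418 ± 4.59 in wild type to 97.0 ± 4.38 in null (-1.94 ± 0.10, limma adjusted p = 0.000199) and stood at 307 ± 38.6 in rescue (1.51 ± 0.10 above null, limma adjusted p = 0.000898). The actin linker gene Vcl rose from 1109 to 1808 in null (0.70, limma adjusted p = 0.00259) and was 1276 in rescue. Of the catenins that bind cadherin tails, named after their values were seen, Ctnnb1 (β-catenin) was 3648, 3437 and 4721 in wild type, null and rescue, with rescue called above both others. Ctnnd1 (p120-catenin) was 1289, 2058 and 1713, with wild type called below both others, and Jup (plakoglobin) was 3925, 4551 and 3445, called lower in rescue than in null. Ctnna1 (α-catenin) was not called. Among 15 other measured cadherin genes 1 was called, Cdh13 (T-cadherin, which lacks a cytoplasmic tail). That was 6.67% in each comparison with wild type, beside 15.3% and 15.4% of all clusters. Cdh13 stood at 114 ± 7.15 in wild type, 383 ± 43.7 in null and 402 ± 33.1 in rescue (1.61 ± 0.11 for null minus wild type, limma adjusted p = 0.000556).

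Mesenchymal matrix genes called in the null line were all lower than in wild type. Of 21 measured matrix and surface genes of mesenchymal cells, 7 were called lower and 0 higher in null minus wild type (11 at an unadjusted limma p under 0.05 in either direction). Their median was -0.27, against -0.01 for all clusters. In rescue minus null 6 were higher and 0 lower (11 at an unadjusted limma p under 0.05, median 0.25). In rescue minus wild type 2 were higher and 5 lower (median -0.06). The calls were 33.3%, 28.6% and 33.3% of this list, beside 15.3%, 15.4% and 15.4% of all clusters. Sparc, a collagen-binding matricellular protein, read 3405, 364 and 3822 in wild type, null and rescue, and the neural cell adhesion gene Ncam1 545, 150 and 686. The matrix glycoprotein gene Tnc (2076, 41.1 and 31.1) and Fstl1, which encodes a secreted glycoprotein (1766, 204 and 246), were high in wild type and low in both MK546-derived lines. The list was written with earlier results for some of its genes known.

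Of 17 other transcription factor genes linked to mesenchyme, 3 were lower and 1 higher in null minus wild type. In rescue minus null 2 were lower, and in rescue minus wild type 4 were lower. These were 23.5%, 11.8% and 23.5% of the list, beside 15.3%, 15.4% and 15.4% of all clusters. Foxc2 was 130 in wild type, 47.2 in null and 74.5 in rescue (-1.20 ± 0.15 for null minus wild type, limma adjusted p = 0.00495). Snai1, the closest relative of Snai2, named here after its values were seen, stood at 45.5, 46.4 and 45.9 and was not called. Of 16 epithelial transcription and splicing factor genes, 7 were higher and 2 lower in null minus wild type (median 0.21). In rescue minus null 1 was higher and 6 lower (median -0.21). In rescue minus wild type 2 were higher and 4 lower (median -0.04). Called genes were 56.2%, 43.8% and 37.5% of this list, beside 15.3%, 15.4% and 15.4% of all clusters. Ehf read 402, 966 and 706 in wild type, null and rescue, called lowest in wild type against both others. Trp63, the p63 gene of basal keratinocytes, read 1019, 1248 and 867 in wild type, null and rescue, Klf4 517, 826 and 619, and Ovol1, a zinc finger repressor of epithelia, 313, 308 and 178. Tfap2c went the other way, from 394 in wild type to 85.0 in null and 120 in rescue.

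Of 17 measured smooth muscle and contractile genes, 2 (11.8%) were called higher in null minus wild type (Cnn2 and Srf), beside 15.3% of all clusters called. The rescue line had 1 called lower against either other line (5.88%, beside 15.4%). This was Cnn2, a calponin of non-muscle cells, at 2345, 3302 and 1779 in wild type, null and rescue. Of 25 TGF-β signalling genes, 4 were higher and 2 lower in null minus wild type (24.0%, beside 15.3% of all clusters). Called each way in rescue minus null were 3 (24.0%, beside 15.4%). In rescue minus wild type 5 were higher and 2 lower (28.0%, beside 15.4%). Tgfbr2, the type II receptor gene, read 916, 1275 and 1541, and Tgfbr1 949, 1139 and 1504. Among 17 other intermediate filament genes, 1 was higher and 2 lower in null minus wild type (17.6%, beside 15.3% of all clusters). Called each way were 2 in rescue minus null (23.5%, beside 15.4%) and 1 in rescue minus wild type (11.8%, beside 15.4%). Krt16, a keratin of activated and wounded epidermis, was called lower in all 3 comparisons, at 2245, 1502 and 673 in wild type, null and rescue (-1.72 for rescue minus wild type, limma adjusted p = 0.000184). Krt19, a keratin of simple and hair follicle epithelium, was 5101, 869 and 5950 in wild type, null and rescue, called lower in null than in both others. Krt18 was 2603, 2488 and 3627, called higher in rescue than in both others, and Krt17 was 10179, 13138 and 11018, called higher in null than in both others. Of 20 epithelial membrane and polarity genes, 1 was higher and 4 lower in null minus wild type. In rescue minus null 3 were higher and 1 lower, and in rescue minus wild type 3 higher and 2 lower. These were 25%, 20% and 25% of the list, beside 15.3%, 15.4% and 15.4% of all clusters. Prss8 read 363, 151 and 146 in wild type, null and rescue, called lower in both other lines than in wild type. Cldn7 (131, 124 and 67.4) was called lower in rescue than in both others, and St14 (1156, 1347 and 1854) higher.

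**Figure D4:**
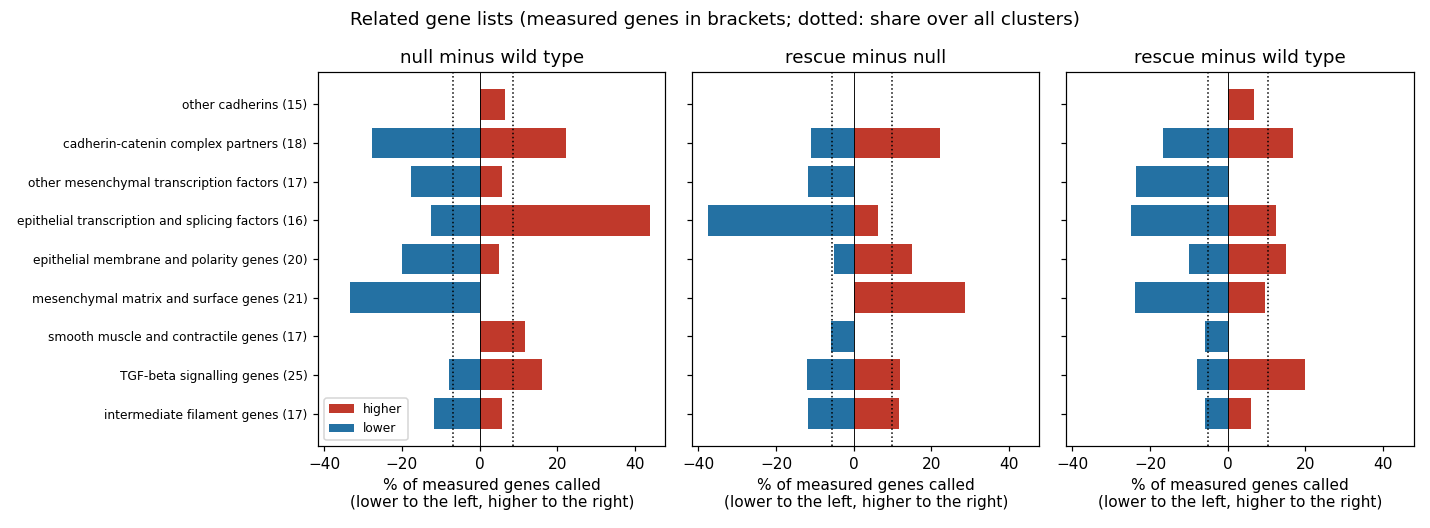
Percentage of the measured genes of 9 related lists called higher (red, right) or lower (blue, left) at a limma adjusted p under 0.05 in each comparison; dotted lines give the same percentages over all 23332 clusters. Mesenchymal matrix and surface genes have no call to the right in null minus wild type and none to the left in rescue minus null.

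Markers of other cell types were set beside these values. Of 15 fibroblast markers, 0 were called by limma in any comparison (0, 0 and 2 at an unadjusted p under 0.05), their summed intensity was 1162 to 1223 in wild type, 1098 to 1140 in null and 1010 to 1068 in rescue, and 10 were below 100 on every array. Of 10 smooth muscle and pericyte markers 0 were called (0, 0 and 1 at an unadjusted p under 0.05), with sums of 586 to 664, 583 to 591 and 553 to 583. Of 10 endothelial markers, Flt1 was called (189, 53.5 and 105 in wild type, null and rescue; sums 657 to 702, 510 to 518 and 569 to 616). Of 9 melanocyte markers, Gpnmb was called (70.1, 626 and 81.0; sums 441 to 474, 965 to 1086 and 473 to 474). Of 11 immune markers, 4 were lower in null and in rescue than in wild type (sums 5703 to 5944, 506 to 548 and 464 to 561). Among them were Cd74 (3145, 68.2 and 65.1) and the MHC class II genes H2-Ab1 (1360, 36.4 and 16.4) and H2-Aa (819, 9.02 and 11.3). Calls in null minus wild type were 10.0% of endothelial, 11.1% of melanocyte and 36.4% of immune markers, beside 15.3% of all clusters. In rescue minus null these shares were 10.0%, 11.1% and 0.0%, beside 15.4% of all clusters. In rescue minus wild type they were 10.0%, 0.0% and 36.4%, beside 15.4%. No marker lay below 16 on every array. Below 100 on every array were 9 smooth muscle and pericyte, 8 endothelial, 7 melanocyte and 6 immune markers. Keratinocyte markers summed to 55691 to 57116 in wild type, 54990 to 57551 in null and 46473 to 49881 in rescue. Of the 10, 3 were called higher in null than in wild type (30.0%, beside 15.3% of all clusters). In rescue 4 were called lower than in null (40.0%, beside 15.4%), Dsc3 among them. Only Dsc3 was called lower in rescue than in wild type (10.0%, beside 15.4%), and 0 were called higher. The part of the immune, endothelial, melanocyte and keratinocyte markers in the values of the 10 genes was not tested.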

How the data were processed

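The authors deposited 1 PLIER intensity per cluster from a core-exon analysis, per the labels, and the submitters' processing notes name Affymetrix Expression Console; background correction, normalization between arrays, software versions and the build were not given in the sources used here. That table holds 23332 clusters on 6 arrays, on a linear scale, without detection p-values. Of these, 14996 clusters had 1 gene symbol in the platform annotation, 1019 several and 7317 none in the tables used here; 14941 matched RefSeq (GRCm38.p6) by Entrez identifier. RefSeq gave names, gene order and promoters.

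Values were analysed as log2(intensity + 16), which understates changes of dim genes, with limma 3.58.1 (R 4.3.3): 1 mean per line over all 6 arrays, eBayes with an intensity trend (3 residual and 3 prior degrees of freedom), two-sided tests, Benjamini-Hochberg over all clusters. The number of arrays limits the precision. The procedure was tested on simulated data. All 10 members were named, and the 3 clusters nearest to each called member. From each related list, up to 3 called genes of smallest adjusted p per comparison were taken. Only some of these are named above, picked with their values seen. Where a symbol had several clusters, the brightest stood for it. The members and lists were chosen with earlier results of these data known. Alternatives were other pseudocounts, normalizations, filters, variance models, fits of 2 lines, a replicate block, each array left out, only named clusters and a 2-fold threshold.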

Additional observations from a re-analysis of the deposited data

How the results depend on the processing

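For called differences of the 10 genes, 181 recalculations kept direction and call, 54 kept the direction only, and 0 turned sign. Members called were 2 to 4 in null minus wild type with an array left out (4 with all arrays) and 2 at 2-fold, 2 to 5 in rescue minus null (5) and 1 at 2-fold, and 1 to 3 in rescue minus wild type (5) and 1 at 2-fold. In the last comparison 3 were called with quantile normalization, without the trend, with only 2 lines fitted and after removing clusters below the median one, where 7 of the 10 genes remained; the cause was not tested. Left-out fits with 1 array of a line assume that it varies like the others. Over all clusters, 3578, 3585 and 3599 were called. These became 1174 to 3524, 1304 to 2689 and 1088 to 2819 with an array left out and 634, 544 and 740 at 2-fold. Without the trend 2306 and 2277 were called in the first 2 comparisons, and with only the 2 lines fitted 2343 in rescue minus null. Higher calls made up 55.4%, 63.4% and 67.2%; median centring made the first 68.1% and the second 40.9%, moving the median of rescue minus null by -0.12, and quantile normalization made the second 49.9% and the third 53.5%. Relative to that shift, the members called in rescue minus null kept their directions and calls. In rescue minus wild type the members' split of 1 higher and 4 lower became 0 and 3 with quantile normalization.

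Signs turned for uncalled differences near 0: Snai2 in rescue minus null (-0.037 with median centring; -0.03 to 0.195 with an array left out), Zeb1 (-0.249 to 0.044) and Zeb2 (-0.097 to 0.043) in the same comparison, and Twist1 in rescue minus wild type (-0.06 with quantile normalization, -0.014 with median centring, -0.087 to 0.14 with an array left out). With the replicate number as a block 3102, 3124 and 3099 clusters and 4, 5 and 4 members were called; Acta2 in rescue minus wild type was lost (limma adjusted p = 0.0800). For arrays with the same number, the correlations of their deviations between lines were 0.026, 0.054 and -0.023. These values cannot decide whether such arrays shared more than the number, since the normalization between arrays is unknown. Acta2, Cdh11 and Zeb1 lie below the array median, where signal over background is least.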

Other observations

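The clusters with a profile most like each called gene were ranked by the Euclidean distance between their 6 log2(intensity + 16) values, each centred on its own mean, over 14537 clusters with 1 symbol. Nearest to Vim were Gstt3, a glutathione transferase gene (distance 0.30; 337 and 330 in wild type, 35.1 and 37.4 in null, 40.2 and 32.4 in rescue), Rab10os and Afap1l1. Nearest to Cdh2 were Cysltr1, a leukotriene receptor gene (0.18), Tmem62 and the p38δ kinase gene Mapk13 (0.21; 518 and 542 in wild type, 229 and 253 in null, 691 and 680 in rescue). Nearest to Twist1 were Tango2, the heparanase gene Hpse (0.14; 144 and 141, 53.6 and 63.8, 152 and 127) and Dglucy.

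Nearest to Cdh3 were Slc12a4, a potassium-chloride cotransporter gene on chromosome 8 like Cdh3 (0.05), Igsf3 on chromosome 3 and Fzr1 on chromosome 10. Nearest to Cdh1 were Reep3 on chromosome 10 (0.055), Terf2ip on chromosome 8 like Cdh1 (0.07), and Nr2e1 on chromosome 10. The 3 clusters nearest to Acta2, a gene of chromosome 19, were Sowahc (0.05), Traf3ip2 and the receptor phosphatase gene Ptprk, all on chromosome 10. Cdh11 had Mnd1, Bcl7a and Fam221a as nearest. The 6 values share 3 lines and 2 arrays of each, so likeness here describes these arrays only.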
